A study of Mus musculus with 250 samples.

Results

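The growth hormone and IGF axis was followed through 10 of its genes, Igf1, Igf2, Ghr, Igf1r, Igfals, Igfbp1, Igfbp2, Igfbp3, Igfbp5 and Socs2, in 5 tissues of mice with a HER2/Neu-driven breast tumor: breast, spleen, liver, thymus and blood cells. The genes were taken by name, as the array's probe sets that carry that gene symbol and no other. This gave 27 probe sets for the 10 genes, out of 18194 genes measured. Each gene was read from its probe set with the highest mean level, and the other probe sets are given where they differ.

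Growth hormone from the pituitary binds its receptor, the product of Ghr, and through the kinase JAK2 and the factor STAT5 it raises Igf1, Igfals and Socs2 in the liver, which is the main source of IGF1 in the blood. IGF1 and IGF2 act through the receptor encoded by Igf1r, and in the circulation most IGF1 travels with IGFBP3 and the acid-labile subunit, the product of Igfals. The other IGF-binding proteins hold smaller pools of IGF, and SOCS2 damps signalling by the growth hormone receptor. In the mammary gland, IGF1 made in the stroma acts on the ducts.

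All mice were female FVB. The tumor-bearing mice carried the transgene pair MMTV-rtTA/TetO-NeuNT, in which the mammary tumor virus promoter drives the doxycycline-dependent activator of an activated Neu (Her2) gene. Their littermate controls carried TetO-NeuNT without the activator. From the age of 8 weeks both groups drank 2 mg/mL doxycycline in 5% sucrose, so the drug was shared and the activator was not. Each tumor-bearing mouse was killed at a tumor size of 1 cm together with the age- and cage-matched control that its label names. Every tissue had 25 tumor-bearing and 25 control arrays, 250 over the 5 tissues. By their labels, the breast samples of the tumor-bearing mice held the tumor itself. Each tissue is a mixture of cells, and fewer cells of a type and less RNA per cell cannot be told apart in such samples.

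The 4 binding protein genes form neighbouring couples in the genome, Igfbp2 with Igfbp5 on chromosome 1 and Igfbp1 with Igfbp3 on chromosome 11, with 0 protein-coding genes annotated between the members of a couple. In spleen Igfbp2 rose and Igfbp5 fell, in breast both rose, and in blood and thymus none of the 4 passed; no difference between neighbours was tested. To set the neighbours side by side, the 250 bases upstream of each start are shown, 5′ to 3′ on the gene's own strand, from RefSeq (GRCm38.p6). They lie at chr11:7197537-7197786 (plus strand) for Igfbp1, chr1:72824230-72824479 (plus strand) for Igfbp2, chr11:7213924-7214173 (minus strand) for Igfbp3 and chr1:72874866-72875115 (minus strand) for Igfbp5. Capitals mark matches, on either strand, to CAAAACA, the core of the element through which FOXO factors and insulin act on IGFBP1, or to GGGCGG, the GC box of Sp1.
Igfbp1: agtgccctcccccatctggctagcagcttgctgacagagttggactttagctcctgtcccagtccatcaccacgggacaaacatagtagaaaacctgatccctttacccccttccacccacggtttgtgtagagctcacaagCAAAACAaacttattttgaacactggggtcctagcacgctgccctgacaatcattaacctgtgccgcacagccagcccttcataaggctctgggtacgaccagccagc
Igfbp2: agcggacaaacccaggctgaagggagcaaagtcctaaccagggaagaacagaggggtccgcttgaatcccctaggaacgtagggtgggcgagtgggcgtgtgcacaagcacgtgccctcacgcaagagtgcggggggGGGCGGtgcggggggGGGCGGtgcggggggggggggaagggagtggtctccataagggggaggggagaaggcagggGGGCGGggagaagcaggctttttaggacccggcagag
Igfbp3: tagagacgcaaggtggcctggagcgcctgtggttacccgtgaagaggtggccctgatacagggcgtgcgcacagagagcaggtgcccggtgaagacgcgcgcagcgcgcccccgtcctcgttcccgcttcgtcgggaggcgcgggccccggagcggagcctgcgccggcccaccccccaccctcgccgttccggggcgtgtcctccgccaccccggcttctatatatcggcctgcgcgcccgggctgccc
Igfbp5: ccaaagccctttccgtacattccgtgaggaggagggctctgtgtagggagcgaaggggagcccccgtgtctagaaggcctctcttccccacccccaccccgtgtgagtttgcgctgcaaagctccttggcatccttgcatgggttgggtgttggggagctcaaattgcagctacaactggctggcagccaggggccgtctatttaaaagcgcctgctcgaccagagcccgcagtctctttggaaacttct
CAAAACA was found in the Igfbp1 sequence 1 time, starting 108 bases before the gene's start (position -108), and 5.56% of the 32851 mouse promoters of the same length held it. GGGCGG was found 3 times in that of Igfbp2, nearest at -37, and 32.7% of promoters held it. The STAT5 consensus TTCNNNGAA, present in 7.02% of promoters, was in none of these 4 sequences. Among all 16 annotated starts of the 9 members with a promoter sequence it was found at 2 starts of Igfals, at -236 and -58. Socs2 is named only. The matches describe letters within these windows.

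Several arrays stood apart and bear on the members. An array was called outlying when its mean correlation with its own group lay more than 3 interquartile ranges below the group's first quartile. This marked 21 arrays, 15 of them controls, in 18 of the 125 pairs. The control array of liver pair 2 correlated at 0.33 with its own group and at most 0.34 with the mean control profile of any tissue. The control arrays of spleen pairs 13 and 21 were closer to the breast profile (0.84 each) than to that of spleen (0.79 each), the spleen array of the tumor-bearing mouse of pair 21 was closest to thymus (0.98), and thymus controls 11 and 20 were closest to breast (0.92) and spleen (0.98). The spleen controls of pairs 13 and 21 also correlated at 0.82 each with the liver profile and at 0.80 each with that of thymus. Values are therefore given over all 25 pairs and, where it changes a call, turns a sign or moves the size by over 1.5 times, without the pairs that hold such an array, which left 22 breast, 20 liver, 23 spleen, 21 blood and 21 thymus pairs. Defining markers otherwise stood high in the labelled tissue. The mean log2 level of 6 hepatocyte markers in liver was 14.39 in tumor-bearing and 14.26 in control mice. That of 4 B cell markers in spleen was 12.22 and 12.53, and that of 4 T cell markers in thymus was 12.02 and 11.88. Markers of other tissues were present too. In spleen 5 exocrine pancreas markers ranged from 5.93 to 14.26 in tumor-bearing mice and from 6.09 to 14.57 in controls. In thymus 5 adipocyte markers averaged 10.79 and 10.75, and 6 skeletal muscle markers ranged from 6.65 to 13.40 and from 5.86 to 12.48. Their part in the member values was not tested. In breast the log2 ratio of 3 prime to 5 prime Gapdh signal, a measure of RNA integrity, was 0.03 in tumor-bearing and 0.79 in control mice (difference -0.76 ± 0.17 SE, lower in 21 of 25 pairs). A fit that holds the ratio as a covariate changed no member's call there. Over all genes it called 4254 up and 4533 down in breast, against 5456 and 5873 without the covariate. The ratio differs with the group, so that fit cannot separate its part from that of the tumor.

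The number of members that passed is given beside the share of all genes that passed in the same tissue, and a share near it says nothing particular of the axis. In breast 8 of the 10 members passed the test (limma on matched pairs, Benjamini-Hochberg adjusted p under 0.05 over all genes), where 62.3% of all genes did, so a member that passes in breast does as most genes did. Igf1r, Igfbp2, Igfbp3, Igfbp5 and Socs2 rose there (30% of all genes rose) and Igf1, Igf2 and Ghr fell (32.3% of all genes fell). In spleen 5 members passed (40.7% of all genes), with Igf1r and Igfbp2 up and Igf2, Igfbp3 and Igfbp5 down (22.4% of all genes rose and 18.3% fell). In liver 3 members passed (10.2% of all genes), with Igf1r up and Igfbp3 and Igfbp5 down (7.89% of all genes rose and 2.28% fell). Without the outlying arrays Igfbp1 and Igfbp2 also rose in liver, which gave 5 members against 37.5% of all genes. In spleen Igf1 also fell and Socs2 also rose without them, which gave 7 members against 56.2% of all genes. In blood 1 member, Igf1r, passed and rose (12.9% of all genes passed, 8.66% rose and 4.27% fell). In thymus 0 members passed by limma, and 0 had an unadjusted p under 0.05. Only 2 genes of all passed there (0.011%), 757 genes (4.16%) had an unadjusted p under 0.05, and limma with a trended, robust variance also called 0 members.

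**Figure D1:**
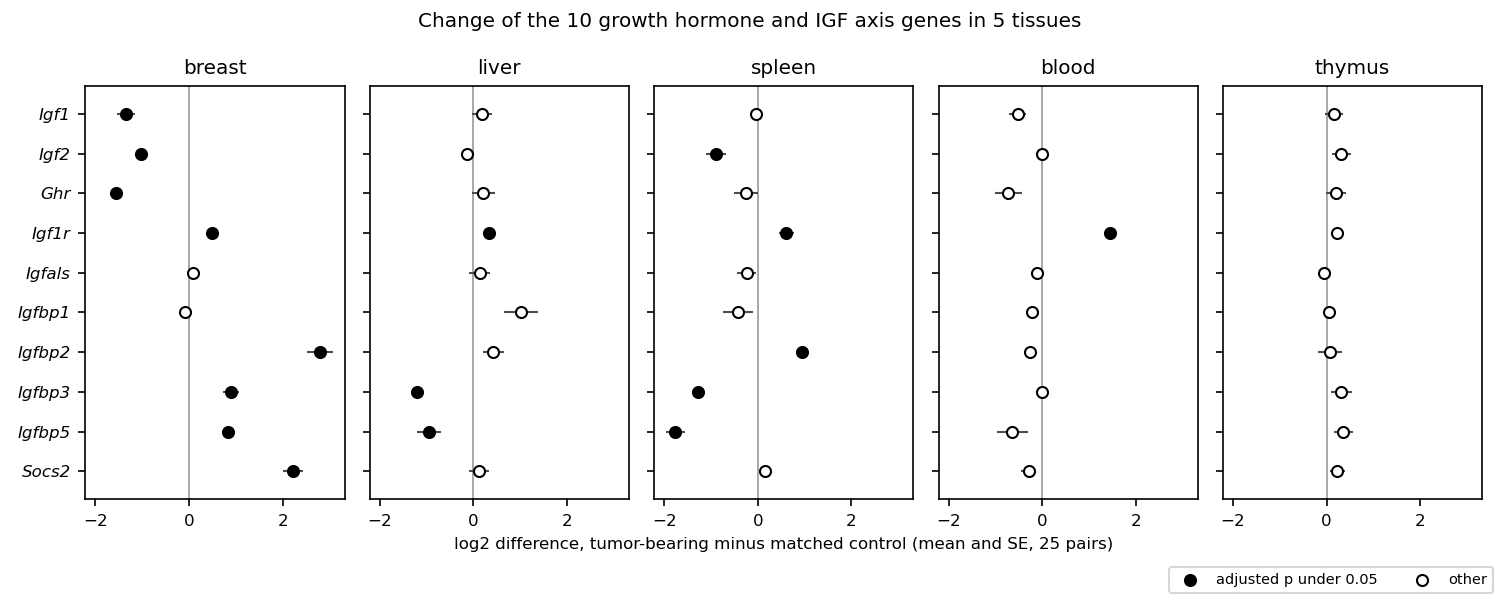
Mean log2 difference, tumor-bearing minus matched control, with its SE over 25 pairs, for each of the 10 genes (rows) in the 5 tissues (panels); filled points had an adjusted p under 0.05. Breast has 8 filled points, spleen 5, liver 3, blood 1 and thymus 0, and Igfbp3 and Igfbp5 stand right of 0 in breast and left of 0 in liver and spleen.

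The ligand genes fell in the tumor-holding breast and, for Igf1, held their level in liver. In breast the log2 intensity of Igf1 was 7.64 at the lowest, 9.25 at the median and 10.82 at the highest in tumor-bearing mice, against 9.29, 10.69 and 11.28 in controls. It was lower in 24 of 25 tumor-bearing mice than in their matched controls, and 15 of the 25 tumor arrays lay below the lowest control. The change was -1.35 ± 0.20 (SE, 2.55-fold lower, adjusted p = 1.24e-06 by limma), and all 4 Igf1 probe sets fell, with changes between -1.97 and -0.97. The exception was pair 1, at +0.70, whose control is an outlying array. Without the outlying arrays, Igf1 was lower in all 22 pairs (-1.56 ± 0.18).

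In liver, where the mean of control Igf1 stood at percentile 98.5 of all genes, the level was 12.51, 12.92 and 13.14 at the lowest, median and highest in tumor-bearing mice, against 7.47, 12.92 and 13.19 in controls. The medians coincided, and the lowest control is the outlying array of pair 2. Igf1 was higher in 13 pairs and lower in 12. Over all 25 pairs the difference was 0.18 ± 0.21 (adjusted p = 0.65 by limma) with a 95% interval from -0.25 to 0.62. Over the 20 pairs without outlying arrays it was -0.01 ± 0.04, with an interval from -0.10 to 0.07, so at that level of confidence any average change was under 0.10 log2 units in either direction.

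In spleen Igf1 was 8.95 to 9.81 (median 9.31) in tumor-bearing mice and 8.11 to 9.84 (median 9.40) in controls, a difference of -0.04 ± 0.07 (adjusted p = 0.70 by limma). Without the outlying arrays it was lower in 17 of 23 pairs, by a small step of -0.13 ± 0.04 (adjusted p = 0.016). In blood Igf1 was low, at percentile 44.7 of all genes, with values of 3.76 to 5.70 (median 4.32) in tumor-bearing mice and 3.80 to 7.24 (median 4.61) in controls. The groups overlapped broadly, and the difference of -0.52 ± 0.18 missed the threshold (adjusted p = 0.061 by limma). It passed with the Gapdh ratio as a covariate (adjusted p = 0.047), with a trended, robust variance (0.047) and within the later run of sample numbers (-0.84 ± 0.22, adjusted p = 0.021). Within the earlier run the mean blood difference was -0.04, and 0.04 without the outlying arrays. The contrast between the runs had an unadjusted p of 0.028 by limma and did not pass after adjustment. In thymus the Igf1 difference was 0.15 ± 0.19, with pairs from -1.88 to 2.26.

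Igf2, the fetal growth ligand that is kept low in adult mouse tissues, was at percentile 43.7 in control breast. Its log2 intensity there was 4.91, 5.63 and 6.87 at the lowest, median and highest in tumor-bearing mice, against 5.67, 6.65 and 7.29 in controls. It was lower in 23 of 25 pairs (-1.04 ± 0.11, adjusted p = 9.35e-09 by limma). The other Igf2 probe set, 1415931_at, averaged 4.16 in tumor-bearing and 4.31 in control breast, and its difference of -0.15 did not pass. In spleen Igf2 was 6.22, 6.92 and 7.69 in tumor-bearing mice, against 7.20, 7.42 and 12.02 in controls. All 25 pairs were lower, and 23 tumor arrays lay below the lowest control. The change of -0.90 ± 0.21 (adjusted p = 0.0012 by limma) was -0.59 ± 0.06 without the outlying arrays, over 1.5 times smaller in log2 units, since the outlying spleen controls held the high values (a difference of -5.07 in pair 13). The second probe set gave -0.17 in spleen and did not pass there. In liver, blood and thymus the differences were -0.13 ± 0.10, -0.01 ± 0.06 and 0.32 ± 0.21, and none passed. They were -0.04 ± 0.05, 0.01 ± 0.05 and 0.43 ± 0.23 without the outlying arrays.

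The receptor genes moved apart in breast, with Ghr lower and Igf1r higher. Ghr in breast was 10.67, 11.09 and 12.72 at the lowest, median and highest in tumor-bearing mice, against 11.71, 12.96 and 13.27 in controls. The tumor arrays lay almost wholly under the controls, 20 of 25 of them below the lowest control array. Ghr was lower in 24 of 25 pairs (-1.56 ± 0.14, 2.94-fold lower, adjusted p = 2.83e-10 by limma), and its other 2 probe sets gave -2.10 and -1.60. Pair 1 again ran the other way, at +0.34.

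Control liver held Ghr at percentile 98.7. Its log2 intensity there was 12.61 to 13.29 (median 13.07) in tumor-bearing mice and 6.87 to 13.31 (median 13.10) in controls, where the low end is again the array of pair 2. The difference was 0.21 ± 0.24 over 25 pairs and -0.05 ± 0.03 over the 20 pairs without outlying arrays (adjusted p = 0.16 by limma, 95% interval -0.10 to 0.01). In spleen the outlying controls set the upper end of Ghr (13.32), and the difference of -0.25 ± 0.25 was 0.05 ± 0.11 without those pairs. In blood Ghr lay near the lowest levels the arrays could measure, at 3.50 to 5.47 (median 3.80) in tumor-bearing mice and 3.65 to 8.15 (median 3.96) in controls. Its difference there of -0.72 ± 0.29 did not pass (adjusted p = 0.11). The controls of pairs 6, 24, 16 and 20 stood highest, at 8.15, 7.98, 7.05 and 6.49, and gave pair differences of -4.44, -4.22, -3.44 and -2.87. The same 4 arrays were the highest controls for Igf1 in blood, at 7.24, 6.27, 6.52 and 5.77, so a few controls carry much of both differences. Among markers of other cells in blood, the adipocyte list ranged from 4.14 to 5.39 in tumor-bearing mice and from 3.88 to 7.45 in controls, and its part in these values was not tested. In thymus it was 0.21 ± 0.21.

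**Figure D2:**
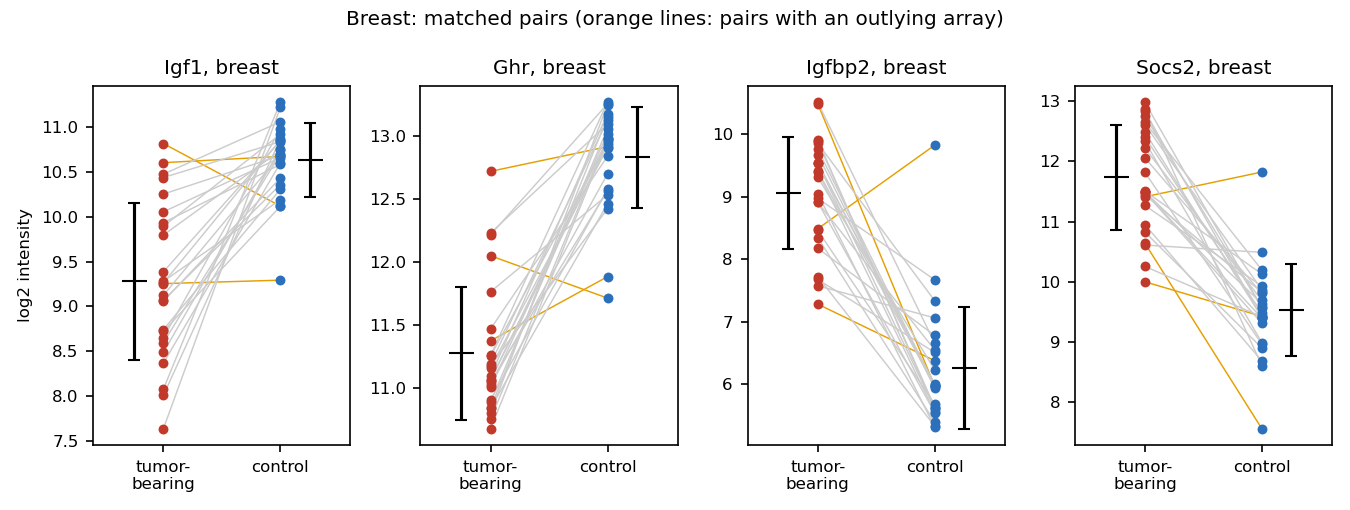
Log2 intensity of Igf1, Ghr, Igfbp2 and Socs2 in breast, with tumor-bearing mice left and matched controls right; a line joins each of the 25 pairs, orange where a pair holds an outlying array, and black bars give mean and SD. Igf1 and Ghr were lower in 24 of 25 tumor-bearing mice, and Igfbp2 and Socs2 were higher in 24 of 25.

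Igf1r, the receptor through which both ligands signal, was the member that rose in the most tissues, breast, liver, spleen and blood. Its largest change was in blood cells, where it was 7.28, 8.17 and 9.62 at the lowest, median and highest in tumor-bearing mice, against 6.29, 6.86 and 7.29 in controls. In 24 of 25 pairs the tumor-bearing mouse was higher, and 24 tumor arrays lay above the highest control. The change was 1.45 ± 0.13 (2.74-fold higher, adjusted p = 9.53e-09 by limma). Of the other probe sets, 1426565_at, 1428967_at and 1446303_at gave 1.49, 1.63 and 1.37, and 1452108_at, with mean levels of 3.71 in tumor-bearing and 3.74 in control mice, gave -0.03. The cell composition of blood moved too: the mean of 7 neutrophil markers was 9.59 in tumor-bearing and 6.88 in control mice (difference 2.71 ± 0.18, 5 of 7 rose), and 4 of 4 B cell markers fell (-0.96 ± 0.20). Their part in the Igf1r result was not tested.

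In breast Igf1r was 8.36 to 9.84 (median 9.003) in tumor-bearing mice and 8.08 to 9.16 (median 8.50) in controls, with 21 of 25 pairs higher (0.50 ± 0.10, adjusted p = 0.00012 by limma). All 5 probe sets rose there, by 0.34 to 1.13. In spleen it was 8.59 to 9.71 (median 8.97) in tumor-bearing mice and 7.87 to 10.89 (median 8.28) in controls, and 22 of 25 pairs were higher (0.61 ± 0.16, adjusted p = 0.0031). The outlying pairs 13 and 21 ran down, the lowest by -1.90, and without them the change was 0.82 ± 0.09 with 22 of 23 pairs higher. In liver the change was small, 0.33 ± 0.09 (adjusted p = 0.011, 20 of 25 pairs higher), and 0.18 ± 0.05 without the outlying arrays, a log2 change over 1.5 times smaller. Of the 5 liver probe sets only this one passed, and under quantile normalization it did not (adjusted p = 0.067). In thymus the difference was 0.22 ± 0.11 (adjusted p = 0.99).

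**Figure D3:**
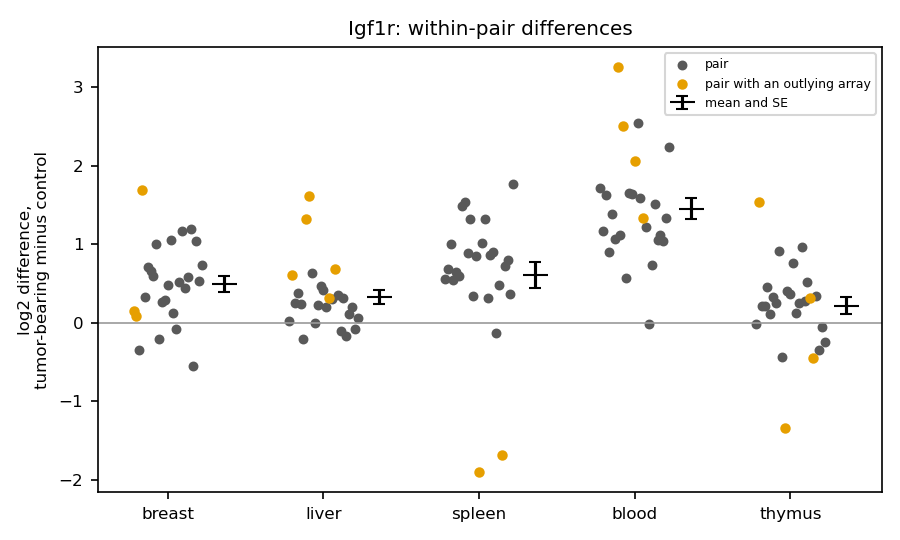
Log2 difference of Igf1r, tumor-bearing minus matched control, for each of the 25 pairs in the 5 tissues (x axis), with the mean and SE beside them and pairs that hold an outlying array in orange. Blood stands highest with a mean of 1.45, and the 2 lowest spleen pairs hold an outlying array.

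The carrier of the circulating IGF complex, Igfals, changed in no tissue by this test. In liver, its main site, it was 10.54, 11.34 and 11.99 at the lowest, median and highest in tumor-bearing mice, against 6.06, 11.47 and 11.76 in controls. The difference was 0.13 ± 0.23, and -0.05 ± 0.05 over the 20 pairs without outlying arrays (95% interval -0.14 to 0.05). The differences elsewhere were 0.09 ± 0.14 (breast), -0.23 ± 0.20 (spleen), -0.11 ± 0.11 (blood) and -0.05 ± 0.11 (thymus). The negative spleen value came from pairs 13 and 21, whose control arrays read 9.03 and 9.88 (differences of -3.55 and -3.82), and without them it was 0.07 ± 0.04. The thymus value was 0.01 ± 0.09 without the outlying arrays.

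Igfbp3, whose product carries most IGF1 in the blood, fell in liver and spleen and rose in breast. In spleen it was 9.44, 9.95 and 10.47 at the lowest, median and highest in tumor-bearing mice, against 10.63, 11.18 and 11.86 in controls. The groups did not overlap, every tumor-bearing mouse being below every control. Of all genes in spleen 0.187% did not overlap, in either direction and with the outlying arrays included. Leaving arrays out could only raise that share, which is not given without them. The change was -1.28 ± 0.09 (2.43-fold lower, 25 of 25 pairs, adjusted p = 2.52e-11 by limma), and the other probe set gave -1.30. In liver Igfbp3 was 5.64, 7.23 and 8.21 in tumor-bearing mice, against 6.43, 8.38 and 8.96 in controls. It was lower in 23 of 25 pairs (-1.20 ± 0.13, 2.29-fold lower, adjusted p = 1.98e-07), with -1.19 in the other probe set. Within the earlier run of sample numbers (10 pairs) the liver change was -1.02 ± 0.29 and did not pass (adjusted p = 0.23). In breast Igfbp3 was 8.03 to 11.20 (median 9.39) in tumor-bearing mice and 7.59 to 9.53 (median 8.42) in controls, and 22 of 25 pairs were higher (0.90 ± 0.16, adjusted p = 2.51e-05). Within the earlier run that rise was 0.62 ± 0.24 and did not pass (adjusted p = 0.069). Without the outlying arrays the mean breast rise was 0.88 in the earlier run and 0.90 in the later. In blood, near the lowest measurable levels, the Igfbp3 difference was 0.00 ± 0.09 (0.12 ± 0.06 without the outlying arrays), and in thymus 0.32 ± 0.22.

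Liver IGFBP3 is known, in the rat, as a product of the non-parenchymal cells, so the markers of those cells are given beside it. In liver 3 of 5 endothelial markers rose (mean level 7.92 in tumor-bearing and 7.45 in control mice, difference 0.47 ± 0.11). Of 7 Kupffer cell and macrophage markers 1 rose (0.42 ± 0.18), and 6 of 8 stellate cell and fibroblast markers rose (0.85 ± 0.14). The mean of each of these lists was higher in tumor-bearing livers, and such a mean in whole liver does not give the number of these cells. All 7 neutrophil markers rose in liver (9.17 in tumor-bearing mice, range 6.82 to 11.58, and 5.75 in controls, range 5.39 to 6.36), and 0 of 6 hepatocyte markers passed. In spleen 7 of 7 neutrophil markers rose (2.15 ± 0.22), 3 of 4 erythroid markers rose (0.93 ± 0.21), and of 8 fibroblast markers 2 rose and 3 fell. The part of these shifts in the fall of Igfbp3 was not tested.

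Igfbp5, a binding protein held in the matrix, also fell in liver and spleen and rose in breast. In spleen it was 6.05, 7.64 and 12.07 at the lowest, median and highest in tumor-bearing mice, against 8.74, 9.39 and 12.46 in controls. All 25 pairs were lower, 24 tumor arrays were below the lowest control, and the change was -1.76 ± 0.20 (3.38-fold lower, adjusted p = 9.74e-08 by limma). Its second probe set, 1422313_a_at, fell by less, with -0.46. In liver it was 5.18 to 8.79 (median 7.47) in tumor-bearing mice and 5.10 to 9.81 (median 8.44) in controls, and 21 of 25 pairs were lower (-0.94 ± 0.25, adjusted p = 0.012). The probe sets disagreed in liver, where 1422313_a_at gave -0.12 and did not pass (adjusted p = 0.59). Within the earlier run of numbers the liver change was -0.32 ± 0.46 and did not pass (adjusted p = 0.74). The outlying pairs 2 and 7 of that run ran up, by 2.66 and 1.88. Without the outlying arrays the mean liver change was -0.96 in the earlier run and -1.24 in the later. In breast, where Igfbp5 stood at percentile 99.5 of all genes, it was 12.88 to 14.20 (median 14.01) in tumor-bearing mice and 11.77 to 14.07 (median 13.16) in controls. Its rise of 0.82 ± 0.11 was seen in 23 of 25 pairs (adjusted p = 1.59e-07), and the dimmer probe set 1422313_a_at rose by 2.48, with means of 10.36 in tumor-bearing and 7.89 in control mice. In blood 12 tumor-bearing and 4 control arrays were at the floor of 11.3 intensity units, so no order among them can be read. The blood difference of -0.64 ± 0.33 did not pass, and it was -0.32 ± 0.23 without the outlying arrays, 1 of which, the control of pair 16, read 10.71 (difference -7.20). The thymus difference was 0.36 ± 0.21.

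**Figure D4:**
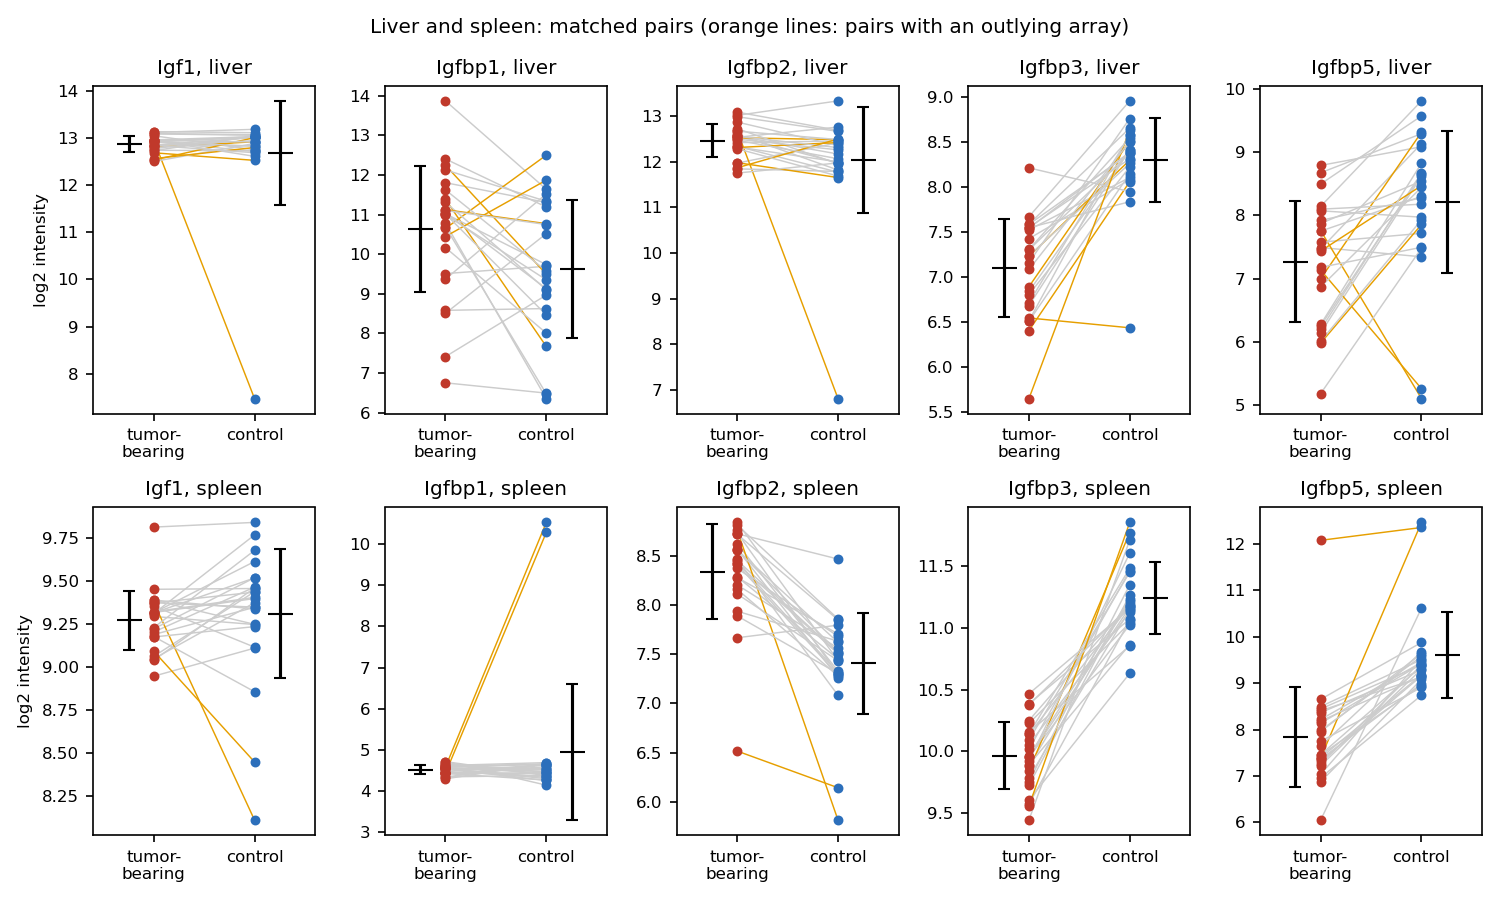
Log2 intensity of Igf1, Igfbp1, Igfbp2, Igfbp3 and Igfbp5 in liver (upper row) and spleen (lower row), with tumor-bearing mice left and matched controls right; lines join the 25 pairs, orange where a pair holds an outlying array, and black bars give mean and SD. Igfbp3 in spleen does not overlap between groups (highest tumor-bearing 10.47, lowest control 10.63), and the liver control of pair 2 stands alone at 7.47 for Igf1.

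The genomic neighbours of these genes, Igfbp2 and Igfbp1, showed no fall by this test in liver or spleen. Igfbp2, a binding protein that is abundant in fetal life and rises in fasting, had the largest change among the members in breast. It was 7.28, 9.31 and 10.51 at the lowest, median and highest in tumor-bearing mice, against 5.32, 5.97 and 9.82 in controls. The highest control is the outlying array of pair 1, and 24 of 25 pairs were higher (2.80 ± 0.27, 6.95-fold higher, adjusted p = 1.62e-09 by limma). In spleen it was 6.51, 8.44 and 8.84 in tumor-bearing mice, against 5.81, 7.45 and 8.47 in controls, and 24 of 25 pairs were higher (0.94 ± 0.11, 1.91-fold, adjusted p = 1.35e-07). In the same spleens Igfbp5, beside it on chromosome 1, fell in all 25 pairs. In liver Igfbp2 was 11.75 to 13.08 (median 12.52) in tumor-bearing mice and 6.81 to 13.33 (median 12.26) in controls. Its difference there was 0.42 ± 0.23 (adjusted p = 0.30), and 0.26 ± 0.08 without the outlying arrays (adjusted p = 0.011, 15 of 20 pairs higher). In blood the difference was -0.26 ± 0.12 and in thymus 0.07 ± 0.26, and neither passed. Without the outlying arrays the thymus difference was 0.47 ± 0.21, with a 95% interval from 0.04 to 0.90 (adjusted p = 0.26 by limma).

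Igfbp1, the acutely regulated binding protein that insulin represses in liver, spread more widely between mice than any other member in liver. It was 6.75, 11.01 and 13.87 at the lowest, median and highest in tumor-bearing livers, against 6.35, 9.57 and 12.50 in control livers. The groups overlapped over most of their range, with SDs of 1.58 and 1.74, and pair differences ran from -2.15 to 4.43. The mean difference was 1.02 ± 0.35 (2.02-fold, 18 of 25 pairs higher), which missed the threshold over 25 pairs (adjusted p = 0.069 by limma) and passed it over the 20 pairs without outlying arrays (1.09 ± 0.38, adjusted p = 0.027). In breast, spleen, blood and thymus Igfbp1 was low, at percentiles 15.98, 18.7, 17.2 and 9.9 in controls, and no difference passed. The control arrays of spleen pairs 13 and 21 set the upper end of its spleen range, at up to 10.53 against a control median of 4.48. The spleen difference of -0.42 ± 0.32 was 0.05 ± 0.04 without them.

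Socs2, a STAT5 target that damps growth hormone signalling, rose in breast. There it was 10.00, 11.51 and 12.98 at the lowest, median and highest in tumor-bearing mice, against 7.56, 9.48 and 11.82 in controls. It was higher in 24 of 25 pairs (2.21 ± 0.21, 4.64-fold higher, adjusted p = 1.47e-09 by limma), and all 6 of its probe sets rose, by 0.19 to 2.21. Its direction in breast was opposite to that of Ghr and Igf1. In liver Socs2 was 9.38 to 11.05 (median 10.36) in tumor-bearing mice and 6.07 to 11.21 (median 10.26) in controls. The difference was 0.12 ± 0.21, and -0.06 ± 0.12 over the 20 pairs without outlying arrays (95% interval -0.31 to 0.19). One of its dimmer probe sets, 1438470_at, fell in liver (-0.30, adjusted p = 0.013). In spleen it was higher in 21 of 25 pairs, by 0.15 ± 0.11, and the rise passed without the outlying arrays (0.29 ± 0.06, adjusted p = 6.36e-05). In blood and thymus the differences were -0.29 ± 0.16 and 0.23 ± 0.15, and the thymus value was 0.36 ± 0.10 without the outlying arrays (adjusted p = 0.16).

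Of 10 measured signalling genes downstream of the growth hormone receptor, 3 rose and 0 fell in liver, where 7.89% of all genes rose. The median difference over the list was 0.27, against 0.01 for all genes, and its mean was 0.53 ± 0.10 (0.40 without the outlying arrays). The 3 were Socs3, a feedback inhibitor that cytokines induce (3.02 ± 0.18, adjusted p = 3.8e-13, higher in 25 of 25 pairs), Ptpn1, a tyrosine phosphatase acting on JAK2 (0.65 ± 0.12), and Jak2 itself (0.41 ± 0.13). Stat5a (0.08 ± 0.07), Stat5b (0.15 ± 0.14) and Cish, another STAT5 target (0.27 ± 0.15), did not pass in liver. Socs3 mean log2 levels were 10.8 in tumor-bearing and 7.8 in control livers, in the same arrays in which Socs2 showed no change by this test. In breast 5 rose and 3 fell (median 0.21, against -0.03 for all genes), with Ptpn2 (0.89 ± 0.07) and Socs3 (1.07 ± 0.14) up and Stat5b (-1.06 ± 0.12) and Stat5a (-0.81 ± 0.09) down. In spleen 2 rose, Socs3 (1.45 ± 0.12) and Cish (0.70 ± 0.16), and 2 fell, Sh2b1 (-0.25 ± 0.04) and Socs1 (-0.26 ± 0.10), with a median of 0.06 against 0.00 for all genes. In blood Socs3 (2.69 ± 0.22) and Bcl6 (2.04 ± 0.23) rose and 0 fell (median 0.20, against -0.03). In thymus 0 of 10 passed.

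Among 10 measured liver genes that differ between the sexes under growth hormone control, 1 rose and 1 fell (median -0.11, against 0.01 for all genes). The complement gene C6 rose by 0.54 ± 0.13, and Hsd3b5, a male-biased steroid dehydrogenase that was low in these females (5.0 in tumor-bearing and 6.0 in control mice), fell by 1.001 ± 0.19. The female-biased Sult3a1 (-0.14 ± 0.15), Cyp2b9 (-0.27 ± 0.26) and Cyp2b13 (-0.13 ± 0.30) did not pass. Of 6 genes that insulin restrains in liver, 0 rose and 1 fell (median -0.07, against 0.01 for all genes), namely Pdk4, which shuts pyruvate out of oxidation (-0.48 ± 0.13). G6pc, for the last step of glucose release, gave -0.32 ± 0.22, Pck1, for gluconeogenesis, gave 0.40 ± 0.28, and neither passed.

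Of 11 further IGF-binding and binding-protein-processing genes, 2 rose and 4 fell in breast (median -0.10, against -0.03 for all genes). Igf2r, which clears IGF2 from the cell surface, rose by 2.08 ± 0.18, while Igfbp6, which prefers IGF2, fell by 2.77 ± 0.24. Stc2, an inhibitor of the PAPP-A proteases, fell by 1.65 ± 0.16, and the protease gene Htra1 fell by 1.66 ± 0.21. In liver Igfbp7 rose (0.75 ± 0.18) and Htra1 fell (-0.22 ± 0.07), with a median of 0.00 against 0.01. In spleen Igfbp6 rose (0.66 ± 0.17) and Htra1 fell (-0.59 ± 0.06), with a median of -0.02 against 0.00. In blood Igfbp6 rose by 2.38 ± 0.22, higher in 24 of 25 pairs, and Igfbp7 fell by 0.30 ± 0.09 (median -0.09, against -0.03). In thymus 0 of 11 passed.

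Of 14 measured genes acting below the IGF1 and insulin receptors, 6 rose and 5 fell in breast (median 0.01, against -0.03). Akt1 rose (0.79 ± 0.10), and Akt2, the AKT of insulin-responsive tissue, fell (-1.18 ± 0.09), as did the receptor adaptors Grb14 (-1.35 ± 0.16) and Grb10 (-0.58 ± 0.11). In liver Grb10 alone rose (0.67 ± 0.10, higher in 24 of 25 pairs) and 0 fell (median 0.05, against 0.01). In spleen 4 rose and 3 fell (median -0.01, against 0.00). Foxo1 fell (-0.82 ± 0.08) and Foxo3 rose (0.56 ± 0.07), and the same pair of forkhead factors gave -0.64 ± 0.13 and 0.48 ± 0.10 in blood, where 3 rose and 1 fell (median 0.12, against -0.03). Grb2 (0.97 ± 0.19) and Akt1 (0.85 ± 0.18) were the other 2 that rose in blood. Akt1 (0.21 ± 0.03) rose and Pik3ca (-0.19 ± 0.03) fell in spleen, and 0 of 14 passed in thymus.

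The cell makeup of the breast samples also differed between the groups. All 5 adipocyte markers fell (mean level 8.62, range 6.74 to 11.83, in tumor-bearing mice, and 12.26, range 10.31 to 12.86, in controls), 6 of 6 skeletal muscle markers fell, and 5 of 6 luminal epithelial markers rose (12.18, range 11.18 to 12.74, in tumor-bearing mice, and 10.54, range 9.03 to 12.41, in controls). All 5 endothelial markers fell (7.55 in tumor-bearing and 8.72 in control mice), as did 4 of 4 T cell markers (5.60 and 7.40) and 4 of 4 B cell markers (5.56 and 7.56), while of 8 stellate cell and fibroblast markers 2 rose and 4 fell (11.12 and 11.35). No adipocyte, muscle, luminal, endothelial, T cell, B cell or fibroblast marker was at the floor in all arrays. Breast pairs 1 and 2, which each hold an outlying array, departed from these shifts. In pair 1 the mean change was -0.09 for the adipocyte and -0.40 for the luminal markers, and in pair 2 it was -0.38 and -0.50. Over the 25 pairs these means were -3.64 and 1.64. The changes of the 8 called members were set against the mean changes of the adipocyte, luminal and fibroblast lists. By Pearson r, 11 of these 24 relations passed. Across the 25 pairs, the change of Igf1 followed the mean change of the adipocyte markers (Pearson r = 0.87, Spearman rho = 0.90, permutation p = 1e-05, the smallest that 100000 permutations can give, adjusted p = 6e-05 over 24 relations). It was 0.84 without the 2 pairs farthest from the median, and 0.87 and 0.91 within the earlier and later runs of sample numbers. For Ghr and the same list r was 0.87 and rho 0.77 (permutation p = 1e-05, adjusted p = 6e-05), with 0.77 without the 2 farthest pairs and 0.91 and 0.79 within the runs. Socs2 ran against the list (r = -0.70, rho = -0.67, permutation p = 9e-05, adjusted p = 0.00036), with -0.54 without those pairs and -0.92 and -0.43 within the runs.

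The change of Igfbp2 followed the luminal list (r = 0.83, rho = 0.78, permutation p = 1e-05, adjusted p = 6e-05), with 0.74 without the 2 farthest pairs and 0.84 and 0.71 within the runs. That of Igfbp5 did so too (r = 0.86, rho = 0.76, permutation p = 1e-05, adjusted p = 6e-05), with 0.77 without those pairs and 0.84 and 0.89 within the runs. The change of Igf1 also followed the fibroblast list (r = 0.72, rho = 0.69, permutation p = 4e-05, adjusted p = 0.00019), with 0.64 without the 2 farthest pairs and 0.62 and 0.89 within the runs. The other 5 that passed were Igf2 with the adipocyte list (r = 0.51), Igf1r (0.62) and Igfbp3 (0.69) with the luminal list, and Igf1r (0.64) and Ghr (0.51) with the fibroblast list. Over the 22 pairs without outlying arrays r was 0.30 for Igf2 with the adipocyte list and 0.32 for Igfbp3 with the luminal list. Of those that did not pass, 10 had opposite signs in the earlier and later runs, such as Igf1r with the adipocyte list (0.22 over all pairs, -0.54 and 0.78 within the runs) and Ghr with the luminal list (-0.29, and -0.81 and 0.85 within the runs). Pairs 1 and 2, the farthest from the median of both lists, are in the earlier run. Without them r was 0.47 for Igf1r with the adipocyte list and 0.41 for Ghr with the luminal list, the sign of the later run. The points share their arrays, so anything that scales an array enters both axes. These relations were chosen after the values were seen, and the part of cell makeup in each member's change was not tested beyond them.

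**Figure D5:**
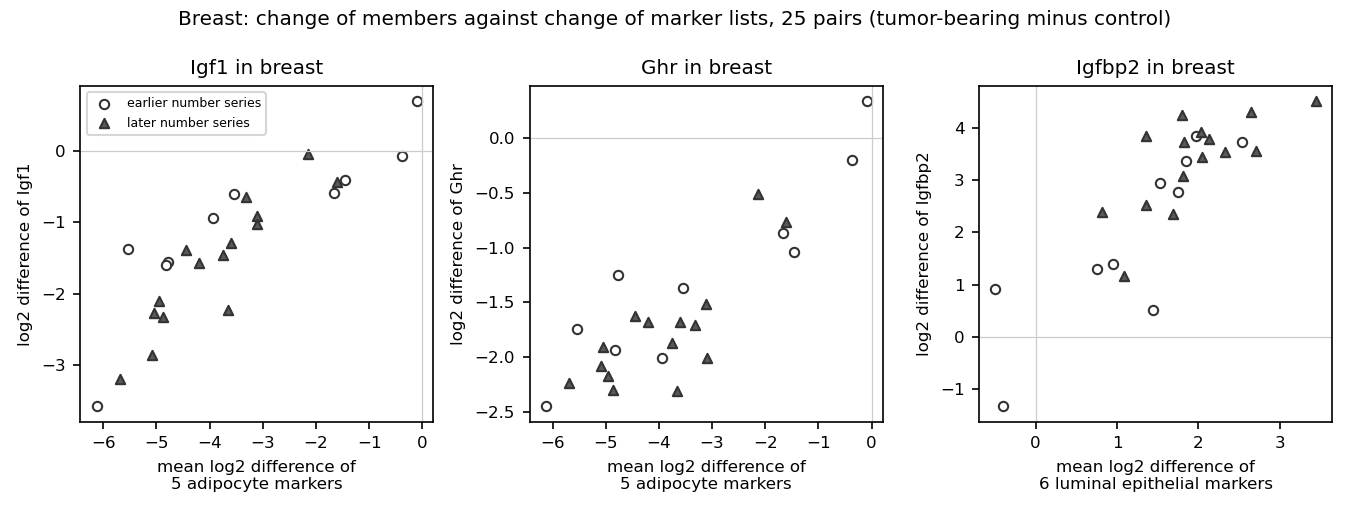
Log2 difference of Igf1, Ghr and Igfbp2 in breast (y axes) against the mean log2 difference of 5 adipocyte or 6 luminal epithelial markers (x axes), tumor-bearing minus matched control, 1 point per pair, with open circles for the earlier and filled triangles for the later run of sample numbers. Pearson r is 0.87, 0.87 and 0.83 over the 25 pairs.

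In liver the relations between members rested largely on outlying arrays. Of 12 relations between members, or a member and Socs3, 5 passed by Pearson r over the 25 pairs. Without the outlying arrays 1 passed, that of Igf1 with Ghr. For it r was 0.98 and rho 0.78 (permutation p = 5e-05, adjusted p = 0.0002), 0.48 without the 2 farthest pairs, 0.99 and 0.79 within the earlier and later runs, and 0.70 over the 20 pairs without outlying arrays (adjusted p = 0.0065). Igf1 with Igfals gave 0.98 over 25 pairs and 0.42 over 20, and Igf1 with Socs2 gave 0.88 and 0.17. Without pairs 2 and 15, the farthest from the median of Igf1, they were 0.52 and 0.20, so both rest largely on those pairs. Igf1 with Socs3 gave 0.38 over 25 pairs and -0.05 over 20. By Spearman rho over the 25 pairs, Igf1 with Ghr and with Igfals also passed, while Igf1 with Socs2 and Ghr with Socs2 and with Igfals did not. Igf1 with Igfbp3 and Igfbp1 with Igfbp2 passed by rho only (0.49 each, permutation adjusted p = 0.041 each). Over the 20 pairs their rho was 0.32 and 0.36. The 3 genes whose liver changes were most like those of Igfbp1, among 9096 genes above the median level and over 25 pairs, were Irs2, an insulin receptor substrate (r = 0.73), 9430015G10Rik (0.71) and Irf2bp2 (0.70). For Igfbp3 they were Slc2a5, a fructose carrier (0.81), Zfp931 (0.75) and Prkag2, a subunit of AMP-activated kinase (0.75). For Igf1 they were Cyb5a, H2-Q10 and Eef1a1 (0.99 each), and for Socs2 Gdap2, Erdr1 and Gpihbp1 (0.92 each). Without the outlying arrays Igf1 had Matr3 (0.72), Supt20 (0.70) and Ghr itself (0.70) in their place, Igfbp1 had Irf2bp2 (0.81), Slc31a1 (0.77) and Setd3 (0.75), and Igfbp3 had Gsta3 (0.87), Cyp2c54 (0.87) and Meiob (0.83). Socs2 then had Stxbp2 (0.80), Srsf5 (0.79) and Ttr (0.77).

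The change of 6 members differed between liver, spleen, blood and thymus by limma's F-test of the group-by-tissue term, which 29.1% of all genes passed. These were Igf2, Igf1r, Igfbp1, Igfbp2, Igfbp3 and Igfbp5. Socs2 passed as well without the outlying arrays (F-test adjusted p = 0.00026, against 0.26 with them), which gave 7 members against 56.3% of all genes. The Igfbp3 change was lower in liver than in blood (liver minus blood -1.20, adjusted p = 6.25e-06) and than in thymus (-1.51, adjusted p = 3.64e-08), while liver and spleen differed by 0.08 (adjusted p = 0.82). The Igf1r change was smaller in liver than in blood (liver minus blood -1.13, adjusted p = 7.04e-07). Against spleen the Igf1r change in liver was smaller by this test only without the outlying arrays (liver minus spleen -0.64, adjusted p = 1.83e-05, against -0.28, adjusted p = 0.29, with them). Igfbp1 changed more in liver than in spleen (1.44, adjusted p = 0.0017) and than in blood (1.24, adjusted p = 0.010). Liver minus thymus was 0.95 and did not pass (adjusted p = 0.125). Without the outlying arrays the spleen, blood and thymus contrasts were 1.04, 1.20 and 1.07, and each passed. Igfbp1 was low in those tissues (percentiles 18.7, 17.2 and 9.9 in controls), where a fall could hardly be read. These contrasts rest largely on the liver change, which missed the threshold over all pairs (adjusted p = 0.069 by limma). The group-by-tissue fit treats the tissues of linked mice as independent. The changes of 0 of the 10 members differed between the earlier and later runs of sample numbers in any tissue by limma (3.91% of genes did in breast and 0% in the other 4 tissues), and 4 of the 50 member values had an unadjusted p under 0.05.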

How the data were processed

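Whole-tissue RNA was labelled with biotin by a one-cycle kit and hybridised to whole-genome mouse arrays of Affymetrix, per the labels' protocols. The authors deposited linear probe set intensity (45101 probe sets, 5.17 to 47198, 0 missing). How they were summarised and normalized, and any genome build, is not given in the sources read here. Median array intensity ran from 25.2 in blood to 129.5 in thymus. Whether the tissues were normalized separately is not known, so levels were compared within a tissue.

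Values under the 5th percentile (11.3) were set to that value before log2 was taken, which shrinks changes of dim genes. Platform annotation gave 1 symbol for 34958 probe sets, several for 932 and none for 9211. Symbols were updated through RefSeq (GRCm38.p6, 34754 matched), and the probe set with the highest mean stood for each of 18194 genes. limma 3.58.1 (R 4.3.3) tested tumor-bearing minus control with the matched pair as a block, adjusted over all genes. The pairing comes from the labels; matched arrays deviated together (median r 0.08 in breast to 0.31 in liver, other pairs -0.02 to 0.01). Sample numbers fall into an earlier run (10 pairs) and a later run (15 pairs), whose meaning the labels do not state. Replicates are separate mice per the labels, and the number of arrays limits the precision. The fit was tested only on simulated data with independent noise. Those data held no pair effect and no outlying arrays, so that test says nothing of either. Named genes are the members, up to 4 called genes per pathway list and tissue with the smallest p, the 3 genes most like Igf1, Igfbp1, Igfbp3 and Socs2 in liver, and listed cell markers; genes named beside them with values that did not pass, and the breast relations, were chosen after values were seen. Members and lists were chosen with earlier results of these data known. Python 3.11.15, scipy 1.17.1 and matplotlib 3.10.9 served the permutation tests and figures. Alternatives covered the block, floor, normalization, probe set choice, level filter, outlying arrays, number runs, Gapdh ratio and variance model.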

Additional observations from a re-analysis of the deposited data

Results flagged for a closer look

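The change of 6 members differed between liver, spleen, blood and thymus by limma's F-test over all genes, and each is given with its adjusted p and its changes in that order of tissues. For Igfbp3 (3.51e-12) they were -1.20, -1.28, 0.00 and 0.32. For Igf1r (1.81e-08) they were 0.33, 0.61, 1.45 and 0.22. For Igfbp5 (2.21e-05) they were -0.94, -1.76, -0.64 and 0.36, and the blood value was -0.32 without the outlying arrays. For Igf2 (0.000112) they were -0.13, -0.90, -0.01 and 0.32, where the outlying controls of spleen pairs 13 and 21 enlarge the spleen value (-0.59 without them). For Igfbp2 (0.00218) they were 0.42, 0.94, -0.26 and 0.07, and the thymus value was 0.47 without the outlying arrays. For Igfbp1 (0.00376) they were 1.02, -0.42, -0.23 and 0.06, and the spleen value was 0.05 without those 2 pairs, with an F-test adjusted p of 0.00027 without all outlying arrays. That fit also called Socs2, at an F-test adjusted p of 0.00026 against 0.26 over all pairs.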

How the results depend on the processing

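No member that passed changed direction under any alternative. Of 602 values of a member in a tissue under an alternative, 584 kept their side of the threshold, 10 passed only under the alternative and 8 passed only in the reported fit. Of the 584, 545 kept their direction and 39 turned sign, none of which passed in either fit; 9 of the 39 arose without the outlying arrays, Igf1, Igfals, Ghr and Socs2 in liver, Igfals, Igfbp1 and Ghr in spleen, Igf2 in blood and Igfals in thymus. The members whose change differed between liver, spleen, blood and thymus numbered 6, and 7 without the outlying arrays. The number of members passing in liver was 3, and it was 5 without the outlying arrays and 0 within the earlier run of numbers, where 85 genes of all rose and 10 fell. In blood it was 1, and it was 2 within the later run, 2 with the Gapdh ratio as a covariate and 2 with a trended, robust variance, Igf1 being added each time (-0.84, -0.51 and -0.52). Within the earlier run the mean blood change of Igf1 was -0.04. The relations that passed in liver by Pearson r numbered 5, and 1 without the outlying arrays. Without the replicate block of matched pairs, 8, 3, 5, 1 and 0 members passed in breast, liver, spleen, blood and thymus, the same as with it. Over all genes, 3385 rose and 3445 fell in liver without the outlying arrays (1436 and 415 with them; 1995 and 1398 without pair 2 alone), 1859 rose and 2174 fell in blood (1576 and 776 with them), and 42 rose and 3 fell in thymus (2 and 0 with them). Igf1r did not pass in liver within the earlier (0.40, adjusted p = 0.52) or later run (0.28, adjusted p = 0.065), nor in spleen within the later run (0.52, adjusted p = 0.16). Without the outlying arrays the mean Igf1r change in liver was 0.19 in the earlier run and 0.18 in the later. In spleen it was 0.74 and 0.88. Of the liver pairs with an outlying array, 2, 7 and 17 fall in the earlier run and 8 and 15 in the later. Spleen pairs 13 and 21 both fall in the later run. The cause of the shifts between number runs was not tested, and those runs hold 10 and 15 pairs. Signal near the floor limits Ghr, Igfbp1 and Igfbp5 in blood.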
